A study of Mus musculus with 6 samples.

Results

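The serpin genes of mouse were followed in colon tumors and in colon tissue taken from the same kind of tumor-bearing animals. Members were the protein-coding rows of the deposited gene table whose symbol begins with Serpin, a clade letter from a to i and a digit, which gave 51 genes of 33573 in the table. Tumors were induced in C57BL/6 male mice by the carcinogen azoxymethane (AOM) followed by repeated courses of dextran sodium sulfate (DSS) in drinking water, a model of colitis-associated colorectal cancer. The tumor group held 3 libraries and the colon group held 3 libraries, labelled with the numbers 2, 4 and 20 in both groups. Colon tissue came from mice under the same AOM/DSS treatment, so it was not colon of untreated animals. The labels call the samples tumor cells and normal colon cells, but the protocol describes whole frozen tissue, and each library therefore holds RNA of every cell type in the piece. The deposited table gives a fragment count for each gene in each library, from a stranded mRNA preparation.

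Serpins share a fold in which an exposed loop acts as bait for a protease. When the protease cuts the loop, an inhibitory serpin snaps into a new shape and traps the enzyme in a covalent complex, so each molecule is used once. Clades are named by letter: clade A holds antitrypsin and antichymotrypsin relatives that are mostly secreted by the liver, clade B holds intracellular serpins of leukocytes and epithelia, clades C and D hold the thrombin inhibitors antithrombin and heparin cofactor II, and clade E holds inhibitors of plasminogen activators. Clade F holds pigment epithelium-derived factor and antiplasmin, clade G the C1 inhibitor, clade H the collagen chaperone Hsp47, and clade I neuroserpin. In the mouse several clades have expanded into tandem arrays of close paralogues that share much of their sequence.

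Total counts ranged from 16995481 to 20789620 per library. The marker lists showed how the pieces differed in makeup. Summed levels of 12 pan-epithelial markers were 10750 to 12000 CPM (counts relative to library size, scaled by the trimmed mean of M values, TMM) in colon and 10680 to 12360 in tumor. All 10 smooth muscle markers fell, from 9170 to 9613 CPM in colon to 570.5 to 1130 in tumor, and 9 of 10 nerve and glia markers fell. Of 9 neutrophil markers 8 rose, and their sum went from between 13.6 and 76.1 CPM in colon to between 198 and 333 in tumor. How far these shifts in makeup take part in the serpin results was not tested.

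The summed level of the serpin family overlapped between the tissues. The summed FPKM (fragment counts relative to exon length and library size, a scale on which genes can be compared) was 560.4, 338.3 and 303.1 in colon replicates 2, 4 and 20, and 344.9, 363.5 and 408.2 in the tumors of the same numbers. The highest value was that of colon replicate 2, and the others ranged from 303.1 to 408.2. Clade B supplied 50.6 to 56.6% of the sum in colon and 40.1 to 61.1% in tumor, most of it from Serpinb1a, an inhibitor of neutrophil elastase, and Serpinb6a. In colon the same 6 genes led every library: Serpinb1a, Serpinb6a, the collagen chaperone Serpinh1, the C1 inhibitor Serping1, the acute phase antichymotrypsin Serpina3n, and the epithelial serpin Serpinb5 (maspin), which together made up 94.4 to 95.0% of the summed FPKM. In tumor the first 5 genes of each library supplied 73.7 to 85.5% of the sum, against 88.5 to 88.8% in colon. Between 11 and 13 serpin genes reached 1 FPKM in a colon library, and 16 or 17 did so in a tumor library.

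**Figure D1:**
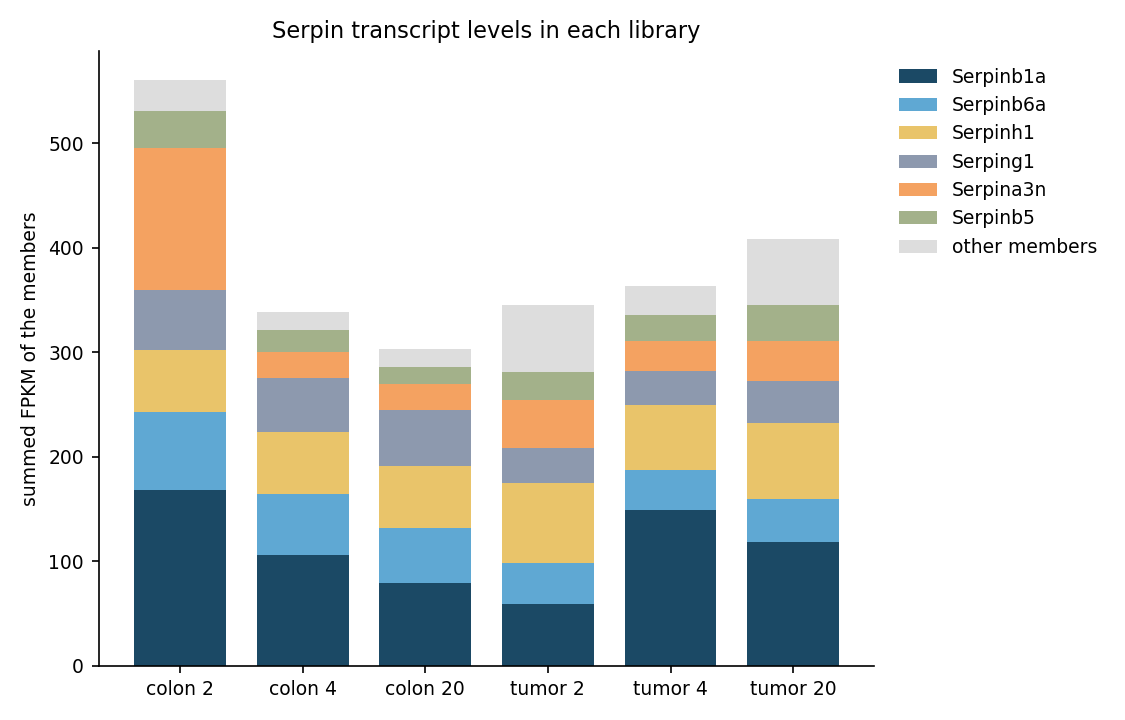
Summed FPKM of the 51 serpin genes in each library (bars, vertical axis in FPKM), split into the 6 genes that led every colon library and all other members. Colon replicate 2 stands highest at 560.4 FPKM with a wide Serpina3n segment, and Serpinb1a and Serpinh1 are large segments of every bar.

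Of the 51 members, 21 had enough counts to be tested, and 30 did not pass the filter on low counts. Among those 30 genes 8 had no count in any library, and none had more than 69 counts over all 6 libraries. In the test across all 18520 genes that passed the filter (edgeR quasi-likelihood, Benjamini-Hochberg adjusted p below 0.05), 4 members were called higher in tumor and 2 lower, and 15 were not called. That is 19.0% and 9.52% of the tested members, beside 16.1% of all tested genes called higher and 16.1% called lower. The serpin shares rest on only 4 and 2 genes, and their difference from genes at large was not tested. The members called higher included Serpinb11, Serpind1 and Serpinb6b, and the members called lower were Serpinb6a and Serping1. The median log2 fold change of the 21 tested members was 0.14, beside 0.01 over all tested genes. The median size of the change regardless of sign was 0.74 against 0.44.

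**Figure D2:**
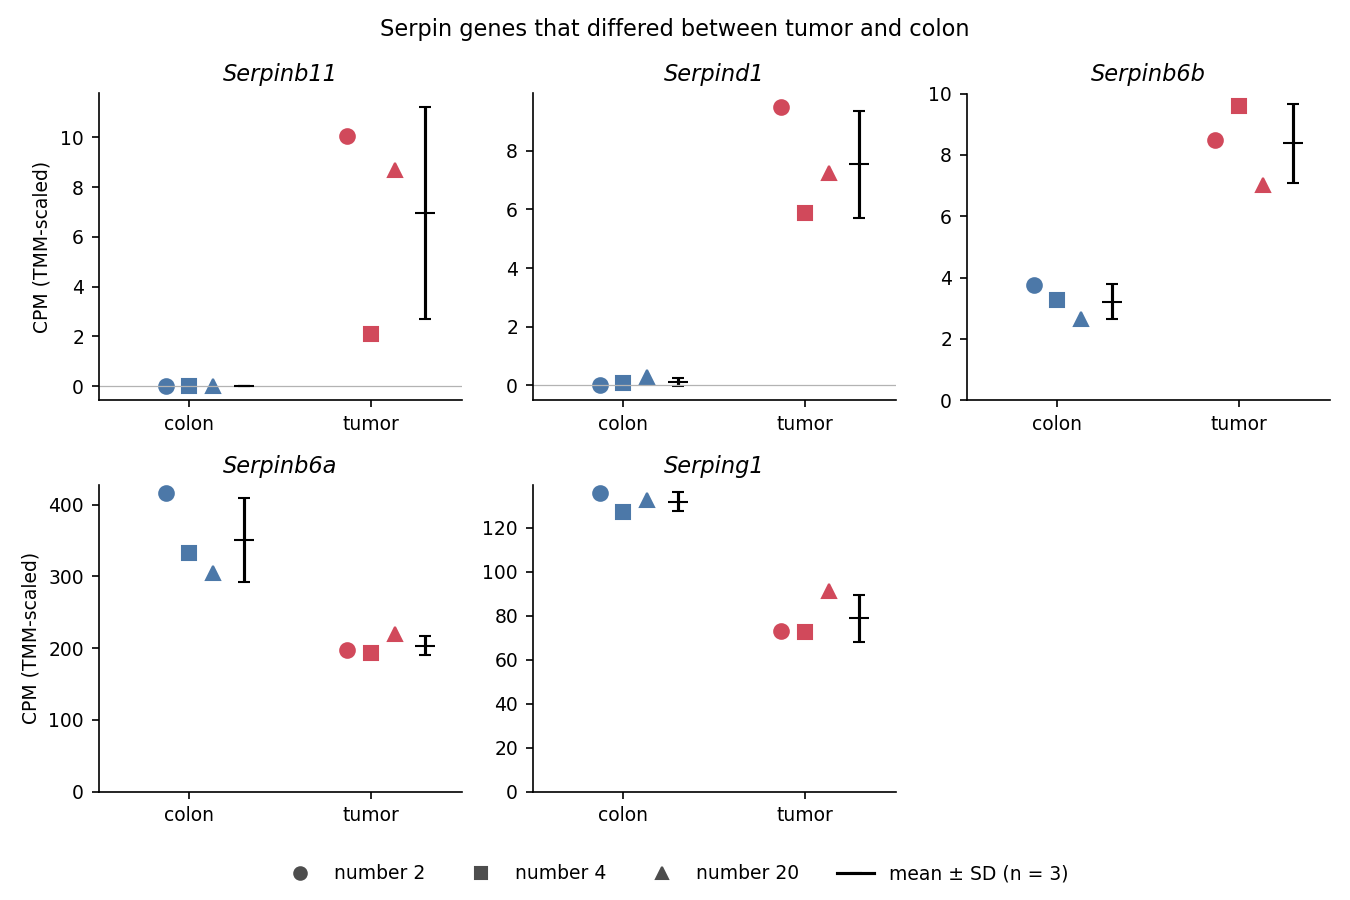
Level of 5 called serpin genes in every library, in CPM on a linear axis, with colon in blue and tumor in red, a marker shape for each number, and the mean ± SD of 3 libraries beside them. The genes shown were picked by their call, which favours separated groups, and no tumor value overlaps a colon value in any panel. Tumor replicate 4 lies far below the other tumors for Serpinb11 (2.11 CPM).

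The called members were spread over several clades rather than gathered in 1 of them. In bulk tissue, more cells of a type and more RNA per cell cannot be told apart, here or in the results that follow. Clade A, with 21 genes the largest, had 5 tested members and none called. Clade B had 20 genes, 7 tested, 2 called higher and 1 lower. Serpinb11, Serpind1 and Serpinb6b had low levels in tumor, and the 2 that fell were among the most abundant serpins of the colon.

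**Figure D3:**
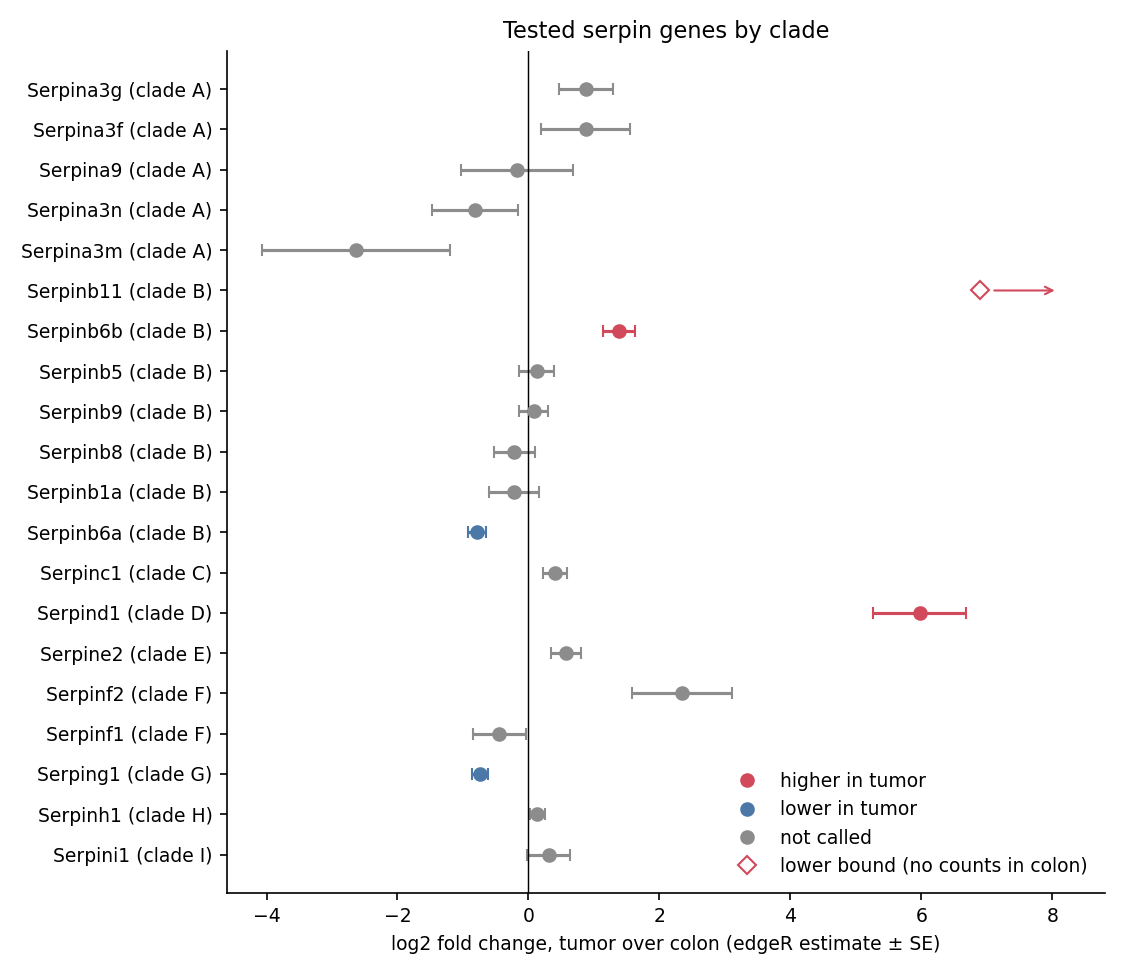
Fitted log2 fold change of tumor over colon for 20 tested serpin genes (horizontal axis, bars ± SE), ordered by clade, with called genes in colour. Serpinb11 had no counts in colon and is drawn at its lower bound (119-fold, on the log2 scale) with an arrow. The estimates run from -2.64 for Serpina3m, which was not called, to 5.98 for Serpind1.

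Serpine2, protease nexin 1 of clade E, inhibits thrombin and urokinase at cell surfaces. It was measured at 19.7, 17.9 and 20.4 CPM in colon replicates 2, 4 and 20 and at 32.0, 19.4 and 35.1 CPM in the tumors. Tumor replicate 4 lay at the colon level while the other tumors lay above it. The log2 fold change of 0.57 ± 0.23 had an adjusted p of 0.096 in edgeR and was not called. Without tumor replicate 4 the adjusted p was 0.010, at a log2 change of 0.79. Serpine3 had 8, 3 and 4 counts in colon and 13, 0 and 7 in tumor, and was too low to test.

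Plasminogen activators turn plasminogen into the clot-dissolving protease plasmin, and they and their receptor rose in tumor. From a list of 32 plasminogen and clotting genes (proteases, receptors and cofactors), 23 were tested, 10 were called higher and 2 lower, with a median log2 change of 0.49. Over all tested genes 16.1% were called higher and 16.1% lower. Plat, tissue plasminogen activator, rose from 23.3, 11.6 and 16.2 CPM in colon replicates 2, 4 and 20 to 448, 173 and 253 CPM in the tumors (log2 4.10 ± 0.43, edgeR adjusted p 0.00091). Plaur, the urokinase receptor, rose from 14.4, 8.47 and 8.24 CPM to 127, 35.7 and 121 CPM (log2 3.19 ± 0.51, adjusted p 0.0043). Tumor replicate 4 was the lowest tumor for both genes. Plau, urokinase itself, was looked up after the values were seen. It was at 16.0, 21.6 and 20.6 CPM in colon and 120, 27.2 and 123 CPM in tumor (log2 2.22 ± 0.52, adjusted p 0.018), with an adjusted p of 0.052 when the replicate number was a block, 0.066 in limma-voom, and 0.055 to 0.059 without any 1 colon library or without tumor replicate 20. Tissue factor, F3, the trigger of clotting, was also looked up afterwards. It was at 84.1, 39.7 and 42.0 CPM in colon and 268, 77.7 and 226 CPM in tumor (adjusted p 0.030), and its tumor replicate 4 value fell inside the colon range. Its adjusted p was 0.081 to 0.10 without colon replicate 4 or 20 or tumor replicate 2 or 20. Summed fibroblast markers overlapped between the tissues, at 1441 to 2219 CPM in colon and 1698 to 2582 in tumor (2 of 8 markers higher and 2 lower), and endothelial markers did too, at 191 to 233 and 153 to 273 CPM. Their part in these results was not tested.

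**Figure D4:**
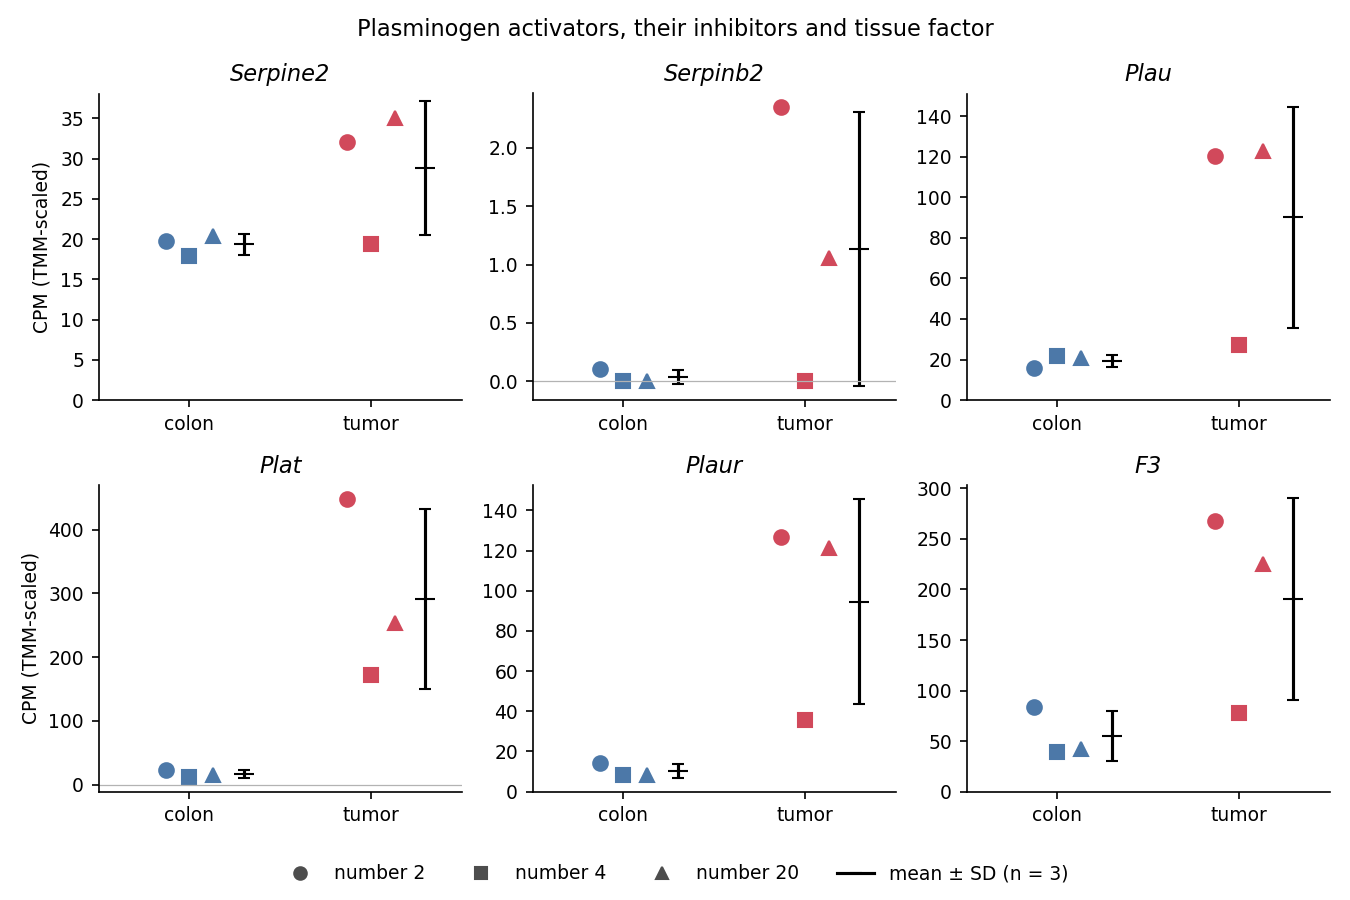
CPM of Serpine2, Serpinb2, the plasminogen activators Plau and Plat, the urokinase receptor Plaur and tissue factor F3 in every library (linear axes that include 0, colon blue, tumor red, shapes for the numbers, mean ± SD of 3). In each panel tumor replicate 4, the square, is the lowest tumor, and for Serpine2, Serpinb2 and F3 it lies within the range of the colon libraries.

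Other members of that list that the naming rule picked were F5, coagulation factor V, St14, the epithelial membrane protease matriptase, Procr, the endothelial protein C receptor, and Plgrkt, a plasminogen receptor. F5 rose from between 0.109 and 0.330 CPM to between 3.16 and 6.60 CPM, St14 rose by a log2 of 0.73 ± 0.11 from a high colon level of 267 to 302 CPM, and Procr rose by 1.24 ± 0.24. Plgrkt fell by 1.07 on the log2 scale. Plasminogen itself, Plg, which is made in the liver, had no counts in colon and at most 0.055 CPM in tumor. The number of list genes called higher was 5 without colon replicate 4 and 6 without tumor replicate 20.

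Serpinb11 is an intracellular clade B serpin, and the mouse protein inhibits trypsin-like proteases. It lies in a row of 7 clade B genes on chromosome 1 (chr1:106788903-107538214, GRCm39) that runs Serpinb5, Serpinb12, Serpinb13, Serpinb11, Serpinb7, Serpinb2 and Serpinb8. Serpinb11 had no counts in any colon library, and 206, 46 and 157 counts in tumor replicates 2, 4 and 20, which is 10.1, 2.11 and 8.70 CPM. With 3 counts in the whole colon group taken as the least that would show, it was at least 119-fold higher in tumor (edgeR adjusted p 0.0052). The call held in all 17 alternative settings.

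Its neighbours did not move as 1 block. Serpinb2, plasminogen activator inhibitor 2, had 2, 0 and 0 counts in colon replicates 2, 4 and 20 and 48, 0 and 19 in the tumors. Both signals sat in tumor replicates 2 and 20, and tumor replicate 4 had none, which is the same library that was lowest for Serpinb11 and Plaur. Summed over the groups the tumor level was 29.3 times the colon level, with a counting interval (95%) of 7.81 to 247 that leaves out the spread between samples. Serpinb2 did not pass the low-count filter. Without a filter its adjusted p was 0.048, and it was 0.011 when tumor replicate 4 was left out, but 0.12 to 0.19 when any 1 colon library was. Serpinb5, maspin, an epithelial serpin without known protease inhibition, was the abundant gene of the row. It measured 98.5, 60.8 and 49.9 CPM in colon replicates 2, 4 and 20 and 70.7, 64.8 and 92.6 CPM in tumor (log2 0.12 ± 0.26, adjusted p 0.75), and the groups overlapped throughout. Serpinb8, which in human inhibits furin, was tested and not called (log2 -0.21 ± 0.31, adjusted p 0.63). Serpinb12 and Serpinb7 had at most 4 counts in any library, and the 10 counts of Serpinb13 all fell in colon replicate 4.

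Several genes of this row are known from stratified epithelia such as skin, so squamous markers were read beside them. Of 14 squamous markers 7 were tested and 5 rose, and their summed level was 8.68 to 22.6 CPM in colon and 107 to 150 CPM in tumor. Krt14, looked up after the values were seen, was at 1.85, 1.60 and 0.549 CPM in colon and at 23.3, 52.7 and 69.3 CPM in tumor. Trp63, the defining regulator of squamous cells, and Sprr3 had no counts in any library, and Krt5 had none in tumor. The summed squamous markers were 116, 107 and 150 CPM in tumor replicates 2, 4 and 20, lowest in tumor replicate 4 as Serpinb11 was, although Krt14 was not. The part of squamous cells in the Serpinb11 result was not tested.

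Promoter sequence was available for 6 of the 7 genes of the chromosome 1 row, from RefSeq windows on GRCm38.p6. The 250 bases before the start of Serpinb11 (chr1:107362064-107362313, plus strand) are shown because this gene went from no counts to counts in every tumor. Matches to TGANTCA are in capitals. This is a loose form of the AP-1 motif TGA(C/G)TCA, with any base allowed in the middle.
Serpinb11: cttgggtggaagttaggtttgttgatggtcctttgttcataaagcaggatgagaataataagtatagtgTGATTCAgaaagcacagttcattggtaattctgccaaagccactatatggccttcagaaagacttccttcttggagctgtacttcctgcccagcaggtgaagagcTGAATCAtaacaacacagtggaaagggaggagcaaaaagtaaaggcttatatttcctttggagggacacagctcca
The matches begin 181 and 76 bases before the annotated start. Each of the 6 genes with a window held at least 1 match, beside 6.75% of all 32851 windows of the same length. None of the 12 genes with a window in the chromosome 13 row of clade B did. Genes were counted for a match in any of their windows, and some have more than 1, so the units of the 2 shares differ. The stretches around the matches are shown to compare the neighbours, with the motif in capitals and 10 flanking bases on each side.
Serpinb5 (140 bases before the start): aagttgggccTGAATCAtgtcttccaa
Serpinb12 (45 bases): aaaaacaatcTGATTCAcgatcattat
Serpinb11 (76 bases): ggtgaagagcTGAATCAtaacaacaca
Serpinb7 (45 bases): agggagtgtcTGAGTCAgaggctttat
Serpinb2 (94 bases): agtaaaatgtTGAATCAtacaaagaat
Serpinb8 (23 bases): gtgggaagtgTGAGTCAcagagtgttc
In Serpinb2 the match is 1 place in the genome, which lies 181 bases before a further annotated start. The flanking bases differed between the genes. The matches of Serpinb11, Serpinb5, Serpinb12 and Serpinb2 have A or T in the middle. In this row only those of Serpinb7 and Serpinb8, with G, fit the stricter TGA(C/G)TCA. Serpinb11 held 2 matches, and Serpinb5 and Serpinb8, which were not called, held 1 each. The only other members with a match were Serpina1a, Serpina1b, Serpina1c and Serpina1d, paralogues of the antitrypsin gene. There it read TGACTCA and stood 229 to 240 bases before the start. A match is a string of letters and not a measured binding site, and the motifs were picked after the expression values had been seen.

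The clade B row on chromosome 13 (chr13:33026075-34186777) holds 13 genes, of which 4 were tested, 1 rose and 1 fell. The pair that moved are close paralogues. Serpinb6a, an intracellular inhibitor of cathepsin G and trypsin-like proteases, measured 416, 332 and 305 CPM in colon replicates 2, 4 and 20 and 198, 194 and 220 CPM in the tumors. All 3 tumors lay below all 3 colon libraries and close to each other. The log2 fold change was -0.78 ± 0.14, so the colon level was 1.72 times the tumor level (edgeR adjusted p 0.0061). Serpinb6b, far less abundant, went the other way. It measured 3.76, 3.25 and 2.64 CPM in colon and 8.50, 9.58 and 7.03 CPM in tumor, again without overlap (log2 1.38 ± 0.25, a 2.60-fold rise, adjusted p 0.0065). Tumor replicate 4 was the highest tumor for Serpinb6b, unlike for Serpinb11. Both calls held in all 17 alternatives.

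Reads of these paralogues can be shared, and both were compared with the third gene of the group on transcript sequence. Serpinb6a was 86.4% identical to Serpinb6c over the aligned part and Serpinb6b 86.5%, and Serpinb6c itself had no counts in colon and 5, 1 and 1 in tumor. Serpinb6a also overlaps 3 genes on the opposite strand, of which 1110046J04Rik fell (log2 -0.83, adjusted p 0.021), Nqo2 gave -0.70 (adjusted p 0.056) and Ripk1 gave 0.00 (adjusted p 1.0). Whether the counter used strand is not given in the sources used here, and the part of these overlaps was not tested. All 10 smooth muscle markers fell as well, and their part in the lower level of Serpinb6a was not tested either.

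Serpinb1a, the mouse leukocyte elastase inhibitor, had the highest FPKM of all serpins in every colon library and varied more within than between the tissues. It measured 397, 254 and 193 CPM in colon replicates 2, 4 and 20 and 130, 328 and 267 CPM in the tumors of the same numbers. The order was reversed within the numbers, with colon above tumor for number 2 and tumor above colon for numbers 4 and 20. The log2 change was -0.22 ± 0.38 (adjusted p 0.69). Serpinb9, the mouse inhibitor of granzyme B that shields cells from their own cytotoxic granules, was flat at 11.8, 11.6 and 12.6 CPM in colon and 9.04, 14.9 and 14.1 CPM in tumor (log2 0.08 ± 0.22, adjusted p 0.81). Of the other genes of the row, Serpinb1b, Serpinb1c and Serpinb6d had at most 5 counts in any library, and Serpinb9b had 0, 1 and 0 counts in colon and 1, 8 and 4 in tumor, a ratio of 11.4 with a counting interval of 1.71 to 484. Serpinb9c, Serpinb9e, Serpinb9f and Serpinb9g had no counts in any library. Serpinb9e, Serpinb9f and Serpinb9g are over 90% identical to their closest paralogue, so that reads from them could be lost or shared in alignment.

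Lists of leukocyte proteases, cathepsins and caspases were read beside the intracellular serpins. Whether these proteases meet the serpins in this tissue was not tested. Of 23 leukocyte and mast cell serine proteases 11 were tested, 5 rose and 1 fell, beside 16.1% of all tested genes in each direction. Mcpt1 and Mcpt2, chymases of mucosal mast cells, rose from 0.246 to 1.48 CPM and from 0.494 to 0.798 CPM in colon to 13.9 to 67.4 CPM and 13.9 to 37.3 CPM in tumor. Tpsb2, a mast cell tryptase, rose too (log2 2.76 ± 0.55), while Tpsg1, a transmembrane tryptase, fell by 2.10 on the log2 scale, with an adjusted p of 0.056 without tumor replicate 20. The classical targets of Serpinb1a and Serpinb6a, neutrophil elastase (Elane) and cathepsin G (Ctsg), had no counts in any library, and 8 of 9 neutrophil markers rose. Prtn3 (proteinase 3) had 13, 6 and 4 counts in colon replicates 2, 4 and 20 and 1, 10 and 2 in tumor. RNA counts do not show whether the proteins were present. Granzyme B (Gzmb), the target of Serpinb9 and looked up afterwards, was at 0.109, 1.17 and 0.879 CPM in colon and 2.15, 4.91 and 3.49 CPM in tumor (log2 2.29 ± 0.70, adjusted p 0.042), and was not called without colon replicate 4 or 20 or tumor replicate 4 or 20 (adjusted p 0.065 to 0.096).

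Of 18 cathepsins and caspases, all tested, 5 rose and 2 fell, beside 16.1% of all tested genes in each direction. Ctsd, a lysosomal aspartic protease, rose from 123, 138 and 124 CPM in colon to 300, 227 and 231 CPM in tumor (log2 0.98 ± 0.14, adjusted p 0.0026). Casp8, the initiator caspase of death receptors, rose by a log2 of 0.46 ± 0.08 and Lgmn (legumain) by 0.98 ± 0.25, and Ctsc and Ctsl rose by 0.48 and 0.72, while Ctso fell by 0.54. The calls of Lgmn, Ctsc, Ctsl and Ctso were lost when single libraries were left out, with adjusted p up to 0.11, and that of Ctsc also with the replicate block (0.053). The number of list genes called higher went down to 2 without colon replicate 4 or 20, and the number called lower to 0 under epithelial scaling.

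Serpind1, heparin cofactor II, is a liver-made plasma inhibitor of thrombin. It was nearly silent in colon and was present in every tumor. Counts were 0, 1 and 5 in colon replicates 2, 4 and 20, or 0, 0.061 and 0.275 CPM, and the tumors had 9.48, 5.87 and 7.26 CPM. Here the tumors lay within a narrow band, and tumor replicate 4 did not stand apart as it did for Serpinb11. The fitted log2 change was 5.98 ± 0.71, or 62.9-fold (edgeR adjusted p 0.0014), and the call held in all 17 alternatives. Serpind1 lies wholly inside Pi4ka, on the opposite strand (chr16:17149235-17161439, plus strand). Pi4ka had 10280 counts over the 6 libraries and changed in the other direction, by a log2 of -0.35 (adjusted p 0.047), and the part of this overlap in the Serpind1 counts was not tested.

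The 250 bases before the Serpind1 start (chr16:17331121-17331370, GRCm38.p6, RefSeq) are shown because it had the lowest adjusted p of the family, with its match to CTTTGAT, the TCF/LEF motif, in capitals on the reverse strand 94 bases before the start.
Serpind1: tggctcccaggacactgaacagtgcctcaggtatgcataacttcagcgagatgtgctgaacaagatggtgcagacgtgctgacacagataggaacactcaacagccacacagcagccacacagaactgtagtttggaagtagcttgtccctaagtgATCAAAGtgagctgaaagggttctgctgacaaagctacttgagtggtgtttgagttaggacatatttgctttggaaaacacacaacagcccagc
The motif was found in 3 of the 42 members with a window and in 3.21% of all windows, and the other members were Serpina12 and Serpinb9b. Of the further motifs searched on both strands, TATAAA was in 9 of 42 members against 12.4% of all windows. TTCNNNGAA (STAT) was in 7 of 42 against 7.02%, and CACGTG (E-box) in 0 of 42 against 6.02%. For every motif members were counted by gene, with a match in any window, and the share of all by window. Among the called members with a window the STAT motif was found once, 77 bases before a start of Serpinb6a. Serping1 had no window and could not be searched. In clade A it was found in Serpina11, Serpina3f, Serpina3g and Serpina3i.

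Other serpins of the clotting and fibrinolysis cascades were lower or moved less. Serpinc1, antithrombin, was at 7.09, 7.37 and 7.09 CPM in colon replicates 2, 4 and 20 and at 10.6, 8.25 and 9.80 CPM in the tumors. The tumors lay above the colon libraries by a narrow margin, and the log2 change of 0.41 ± 0.19 was not called (adjusted p 0.14). Zbtb37, which overlaps Serpinc1 on the opposite strand, rose by a log2 of 0.62 (adjusted p 0.0078). Serpinf2, antiplasmin, which stops plasmin itself, was at 0.436, 0.675 and 0.055 CPM in colon and 3.08, 0.917 and 1.94 CPM in tumor. All 3 tumors were above the colon libraries at this low level, and tumor replicate 4 was the lowest of them. Its log2 change of 2.34 ± 0.77 missed the threshold at an adjusted p of 0.054, and 6 of 16 alternatives called it, among them DESeq2 (0.019) and the fit without tumor replicate 4 (0.038). Serpina10, which inhibits factor X with protein Z, had 3, 5 and 0 counts in colon and 10, 33 and 2 in tumor and was not tested.

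Because these inhibitors are made chiefly by the liver, liver markers were read beside them. Of 10 liver markers 9 were in the gene table, 6 were tested and 2 rose, Alb and Hp. The other tested markers were not called. Trf (log2 1.47) and Apoa2 (0.98) had positive changes, and Ttr (-1.18) and Apoh (-1.51) negative ones. Albumin (Alb) was at 1.09, 0.614 and 1.43 CPM in colon replicates 2, 4 and 20 and at 15.0, 32.4 and 10.7 CPM in tumor, and haptoglobin (Hp) was at 0.659 to 1.96 CPM in colon and 35.9 to 84.7 CPM in tumor. Among the markers too low to test, Fga, a fibrinogen chain, had no counts in any library. Ahsg had no counts in colon and 14, 5 and 7 in tumor replicates 2, 4 and 20. Apoa1 had none in colon and 1, 3 and 0 in tumor. The antitrypsin genes, which are among the most abundant serpins of liver, were close to absent: Serpina1a had no counts in any library, and Serpina1c and Serpina1d had at most 2 counts in a library. Serpina1b had 6, 7 and 9 counts in colon and 18, 3 and 6 in tumor, and Serpina1e had 22, 23 and 0 in colon and 2, 1 and 4 in tumor. Serpina1a to Serpina1e are each over 90% identical to their closest paralogue, so that reads between them could be split or dropped. The sum of the pancreas markers did not pass 0.604 CPM in any library.

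Serping1, the C1 inhibitor, holds back the complement proteases C1r and C1s and the contact system of clotting. It was 1 of the 2 members that fell. It measured 136, 127 and 133 CPM in colon replicates 2, 4 and 20 and 72.9, 72.7 and 91.2 CPM in the tumors. The colon libraries agreed closely, and every tumor was below every colon library. The log2 fold change was -0.74 ± 0.12, with the colon level 1.67 times the tumor level (edgeR adjusted p 0.0043), and the call held in all 17 alternatives. Of 6 complement proteases that C1 inhibitor holds, 5 were tested and none was called by edgeR (1 had an unadjusted p below 0.05, and DESeq2 called 1 higher), with a median log2 change of -0.02. C1s1 and C1ra, looked up afterwards, were at 112 to 157 and 39.5 to 60.7 CPM in colon and at 116 to 125 and 46.2 to 51.2 CPM in tumor. Both overlapped between the tissues (log2 -0.15 ± 0.13 and 0.06 ± 0.18). Masp1, a lectin pathway protease also looked up afterwards, did not overlap, at 4.47, 4.91 and 5.82 CPM in colon replicates 2, 4 and 20 and 12.5, 7.66 and 7.26 CPM in tumor, and was not called (log2 0.85 ± 0.28, adjusted p 0.053). The difference between inhibitor and protease was not tested.

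Clade A had the largest number of genes, and few of them had enough counts to test. Of its 21 genes 20 form a row on chromosome 12 (chr12:103581045-104380588), 5 passed the filter and none was called. Serpina3n, the acute phase serpin of mouse that inhibits granzyme B and leukocyte proteases, was the abundant gene, at 289, 52.7 and 53.0 CPM in colon replicates 2, 4 and 20 and 90.0, 56.9 and 77.5 CPM in tumor. Colon replicate 2 stood far above the other colon libraries, and tumor exceeded colon for numbers 4 and 20. The log2 change of -0.81 ± 0.66 (adjusted p 0.38) was 0.50 without colon replicate 2 (adjusted p 0.12), so its direction depended on that library.

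The same library was the highest for other clade A genes. Serpina3m was at 13.9, 1.41 and 0.110 CPM in colon and 1.61, 0.138 and 0.720 CPM in tumor (log2 -2.64 ± 1.44, adjusted p 0.20). Serpina3c had 34, 3 and 11 counts in colon and none in tumor. With 3 counts taken in the same way for the tumor group, Serpina3c was at least 18.3-fold lower in tumor. It did not pass the filter, its adjusted p was 0.010 without a filter, and over the leave-one-out fits that kept it the adjusted p was 0.032 to 0.063. Colon replicate 2 was also the highest colon library for the summed neutrophil markers (76.1 CPM, against 13.6 and 28.4), liver markers and fibroblast markers. Ly6g alone gave 66.7 CPM of that neutrophil sum. Trf (116 CPM) and Ttr (45.3 CPM) gave most of the liver sum of 167 CPM. The part of these markers in the clade A values was not tested.

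Serpina3g, an intracellular inhibitor of cathepsins in mouse lymphocytes and macrophages, was at 2.89, 2.76 and 4.61 CPM in colon and 3.27, 6.83 and 8.75 CPM in tumor. Tumor was above colon for each number although the groups overlapped, and the log2 change of 0.87 ± 0.41 was not called (adjusted p 0.15, or 0.042 without tumor replicate 2). Its closest paralogue Serpina3f, 88.5% identical in transcript sequence, gave 0.87 ± 0.69 (adjusted p 0.37). Serpina9, known from germinal centre B cells, gave -0.17 ± 0.86 (adjusted p 0.90) with only 2 counts in tumor replicate 4. Serpina6, which carries corticosteroids in blood, and Serpina11 and Serpina3k had no counts, the genes of the row not named here had at most 6 counts in any library, and Serpina7, the thyroxine carrier on the X chromosome, had 1 count in all. Serpina3k lies inside Serpina3m and Serpina1d inside Serpina1b, on the same strand, so the counts of these genes depend on how the counter assigned shared bases, which is not given in the sources used here.

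**Figure D5:**
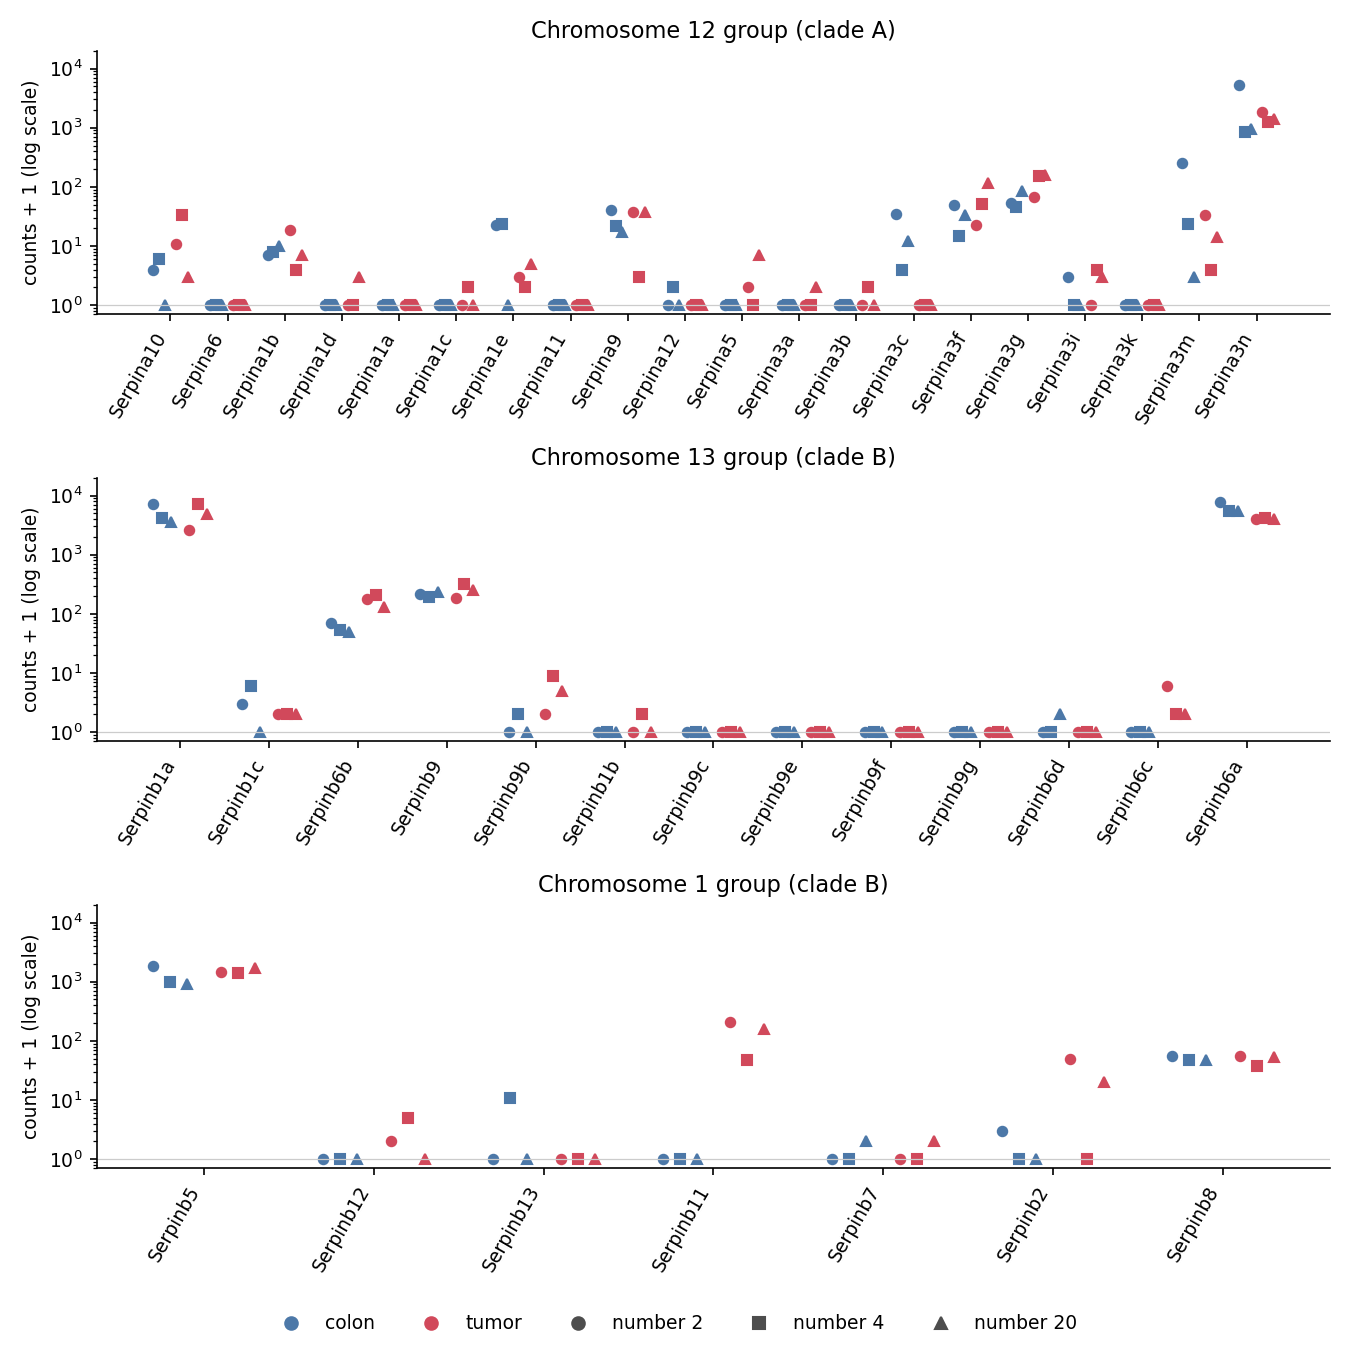
Counts plus 1 (log axis) of every gene in the serpin rows of chromosomes 12, 13 and 1, in genomic order, for each colon (blue) and tumor (red) library with shapes for the numbers. Points on the grey line are 0 counts. Serpinb11 and Serpinb2 rise from the line in tumor, Serpina3c falls to it, and most genes of the rows stay at or near it in both tissues.

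The remaining members with a level of over 10 CPM in either tissue were Serpinh1 and Serpinf1. Serpinh1, the chaperone Hsp47 that keeps procollagen folded in the endoplasmic reticulum and inhibits no protease, was at 148, 149 and 155 CPM in colon replicates 2, 4 and 20 and 179, 145 and 173 CPM in tumor. The log2 change was 0.14 ± 0.11 (adjusted p 0.38), and tumor replicate 4 was below every colon library. Of 17 collagen genes and collagen-modifying partners 3 were called higher and none lower, with a median of 0.41. This is near the 16.1% of all tested genes called higher, while 16.1% of all were called lower. The called genes were the lysyl hydroxylase Plod3 (log2 0.60 ± 0.14) and the collagen chains Col1a1 (1.13 ± 0.31) and Col5a2 (1.03 ± 0.31). With the replicate number as a block 6 were called higher and 1 lower, and without colon replicate 4 or 20 none was called higher. Serpinf1, pigment epithelium-derived factor, a secreted serpin that inhibits no protease and restrains vessel growth, was at 16.2, 7.80 and 6.81 CPM in colon and 8.70, 4.72 and 9.25 CPM in tumor (log2 -0.44 ± 0.41, adjusted p 0.44). Colon replicate 2 was again the highest library. Serpini1, neuroserpin, an inhibitor of tissue plasminogen activator in nerve cells, gave 0.31 ± 0.33 (adjusted p 0.51), although 9 of 10 nerve and glia markers fell.

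Protease inhibitors of other families were read beside the serpins. From a list of 33 such genes 20 were tested, 2 were called higher and 7 lower, with a median log2 change of -0.19. Over all tested genes 16.1% were called higher and 16.1% lower. Wfdc1 and Reck, the second a membrane-bound inhibitor of matrix metalloproteinases, fell by 2.41 and 2.01 on the log2 scale. Itih2 and Itih5, heavy chains of the inter-alpha-trypsin inhibitor family, fell by 3.60 and 2.39, with Itih5 going from 222 to 406 CPM in colon to 30.2 to 88.8 CPM in tumor, and Pi16 fell by 1.65. Wfdc18 rose, from 4.72 to 19.1 CPM in colon to 147 to 238 CPM in tumor (log2 4.24 ± 0.56, adjusted p 0.0023). Serpins and other inhibitors were not compared by a test.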

How the data were processed

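Total RNA of 3 tumors and 3 colon pieces was sequenced as stranded mRNA libraries. According to the submitters' processing notes, cutadapt and HISAT were run with GRCm39. The sources used here do not give their versions, the counting tool or its strand setting. The authors deposited raw fragment counts per gene and FPKM values, which divide counts by exon length and library total; these were used for levels between genes and for a limma alternative with a pseudocount of 1 or 0.1 on the log2 scale.

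The quasi-likelihood test of edgeR 4.0.16 was run in R 4.3.3 after filterByExpr and TMM scaling, without a block, and p was adjusted by Benjamini-Hochberg over 18520 genes at 0.05. Standard errors are the log2 change over the root of F and are approximate. The script was checked on simulated data. Alternatives used DESeq2 1.42.0, limma 3.58.1, other scalings and filters, a replicate block, and leaving out each library. Counting intervals (95%, exact binomial) and floors cover counting error only.

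The series design speaks of paired tissue, so equal numbers were taken as pairs. Deviations of same-numbered libraries from their group means correlated at 0.19, 0.12 and 0.02. Those of differently numbered libraries correlated at -0.204 to 0.125, so these values hardly set the pairs apart. The labels do not say that numbers are separate animals, so p-values cover only the spread among these libraries. The members, gene lists and motifs were chosen with earlier results of these data known. Values per library were given for called members of at least 1 CPM in either tissue and others of at least 10 CPM, with further members chosen after their values were seen. From each gene list up to 6 called genes of at least 5 CPM with the lowest adjusted p were named. Promoter windows came from RefSeq (GRCm38.p6) and matched 42 of 51 members. A planned comparison of proteins was replaced by transcripts of GENCODE (BLAST 2.17.0). A called member that is part of the counts is not reported here.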

Additional observations from a re-analysis of the deposited data

How the results depend on the processing

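Over the 17 alternatives no called serpin changed direction. Serpind1, Serping1, Serpinb11, Serpinb6b and Serpinb6a were called in all 17. The number of serpins called higher was 4 and ranged from 3 without colon replicate 4 to 7 without tumor replicate 4 when single libraries were left out, and from 3 with limma-voom to 6 without a filter otherwise. The number called lower was 2 and ranged from 2 to 3 in every setting, with Serpina3c or Serpina1e as the added gene. With the replicate block, 4 were called higher and 2 lower, and it changed no call of a serpin. Of the 15 tested members that were not called, Serpine2, Serpinf2 and Serpina3g were called in some alternative. Over all genes, the main fit called 2981 higher and 2987 lower (49.9% higher), whereas limma on FPKM called 3860 and 2350 (62.2% higher, pseudocount 1) or 3911 and 2408 (61.9%, pseudocount 0.1), where the median log2 change of all genes was 0.09 and 0.12. Without colon replicate 4 the fit called 1905 and 1904 genes.

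With 3 libraries in each tissue the fits have few degrees of freedom, and low members such as Serpinb2, Serpinf2 and Serpina3c were on either side of the filter or the threshold depending on the setting.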

Other observations

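Rows with serpin symbols that the table types as pseudogenes were not among the 51 genes. Serpina3e-ps, which lies within the chromosome 12 row between Serpina3c and Serpina3f, had no counts in colon and 20, 12 and 15 counts in tumor replicates 2, 4 and 20. With 3 counts in the whole colon group taken as the least that would show, it was at least 13.7-fold higher in tumor (edgeR adjusted p 0.0075), whereas Serpina3c beside it had counts in every colon library and none in tumor. Serpina3h had 2, 2 and 2 counts in colon and 1, 10 and 6 in tumor. Serpinb10, typed as a polymorphic pseudogene, and Serpinb1-ps1 had no counts in any library.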
